A study of Mus musculus with 10 samples.

Results

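The genes described here build, bind and steer the actin cytoskeleton of mouse CD4+ T cells. A list of 42 such genes was set by name, covering filament crosslinkers, integrin adaptors, myosins, membrane linkers, coronins, filament turnover factors, the Arp2/3 machinery, Ena/VASP proteins, small GTPases such as Rac2 and Cdc42 with exchange factors, vimentin and 2 ICAM adhesion ligands. A member entered where a transcript probe set of the array named that gene alone, and 41 of the 42 did, out of 30738 genes named this way on the array. Myh9, a non-muscle myosin heavy chain, was left out because its probe set also names a second gene. No measured value was used to choose the members, but the list was drawn up with earlier results of these data known.

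RNA levels were compared in regulatory T (Treg) and conventional T (Tconv) cells from lymph nodes of Il2ramut/mut and wild type (WT) mice, on 10 Affymetrix arrays. Il2ramut/mut mice carry a tyrosine-to-histidine change in CD25, the alpha chain of the interleukin-2 (IL-2) receptor, that lowers CD25 on the cell surface and the response to IL-2. There were 3 arrays of Il2ramut/mut Treg cells, 3 of WT Treg cells, 2 of Il2ramut/mut Tconv cells and 2 of WT Tconv cells. All donors were unmanipulated female C57BL/6 mice of 6 to 8 weeks, homozygous for a Foxp3-RFP reporter, and 50000 cells were sorted per sample. Treg cells were RFP+, whereas Tconv cells were RFPneg and, by the methods of the study, sorted as CD25neg and naive (CD62Lhi CD44lo). The mutation lowers surface CD25, and whether the CD25neg gate took the same cells in both genotypes was not tested. The mutation arose in a colony of Ccr2-/- mice, was bred back to Ccr2+/+, and is present in every cell of the mouse. By the description of the study, replicate arrays of a group came from separate mice. Whether Treg and Tconv cells of one mouse were both used is not given by the labels.

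Actin filaments give a T cell its shape and its means of movement. The Arp2/3 complex and Ena/VASP proteins make filaments grow, cofilin and gelsolin proteins cut or cap them, alpha-actinins, filamins and plastins tie them together, and class I myosins and ezrin, radixin and moesin tether them to the membrane. Talin and kindlin couple them to integrins such as LFA-1, which binds ICAMs on other cells. T cells depend on this machinery to crawl through lymph nodes and to form the synapse with an antigen-presenting cell, and Treg cells use LFA-1 to hold on to dendritic cells.

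The values are log2 signals, so a difference of 1 is a 2-fold change. Of the 41 members, 40 lay above background on all 10 arrays, where background is the 95th percentile of 23 control probe sets that match no mouse sequence (4.98 to 5.54 across the arrays). Vcl, encoding the adhesion protein vinculin, passed it on 3 arrays. Arrays of one group correlated at 0.9946 or more. All 12 measured Treg genes of a list that includes Il2ra, Ctla4 and Ikzf2 were higher in Treg than in Tconv cells of both genotypes. Tconv cells were sorted as CD25neg, so the comparison of Il2ra is not independent of the sort. Of 9 B cell genes, 6 were below background on every array, among them Ms4a1, Cd79a and Pax5. Of 12 myeloid genes, 5 were below it on every array, among them Csf1r, Adgre1 and Flt3. Genes of both lists that were above background on all 10 arrays, and those called, are given with the comparison of cell types. The array does not read the Il2ra mutation itself, and Il2ra mRNA averaged 15.23 in Il2ramut/mut Treg cells and 14.98 in WT Treg cells. A member was called where its adjusted p in limma, fitted over 65956 probe sets and adjusted by Benjamini-Hochberg, was under 0.05. The contrasts share arrays, so a gene called in several of them has not been measured independently each time.

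Between Il2ramut/mut and WT Treg cells, 4 of the 41 members were called. Myo1f and Swap70 were higher in the mutant, and Actn1 and Cnn3 were lower. The 2 higher members are 4.88% of the list, against 0.171% of all probe sets and 0.469% of the 15994 genes whose mean signal lay above background. The 2 lower members are also 4.88% of the list, against 0.202% of all probe sets and 0.350% of those genes. The median difference over the 41 members was 0.04, and -0.03 over the genes above background. Actn1, Cnn3 and Myo1f also stand among the genes the study displayed from these same arrays, so their direction here is not independent evidence. Because the list was drawn up with earlier results of these data known, its shares of calls, here and below, do not measure how often actin genes change.

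Myo1f, a class I myosin of haematopoietic cells that connects the membrane to actin filaments, showed the largest rise. Its log2 signals were 10.53, 10.54 and 10.76 in Il2ramut/mut Treg cells, against 9.44, 9.22 and 9.31 in WT Treg cells. Every mutant array stood more than 1 log2 unit above every WT array. The difference was 1.28 ± 0.10 (SE), or 2.44-fold higher, with an adjusted p of 0.00216 in limma. Swap70, an actin-binding protein linked to Rac signaling and best known from B cells, had signals of 10.19, 10.07 and 10.07 in mutant Treg cells and 9.65, 9.57 and 9.53 in WT Treg cells. The arrays of the genotypes did not overlap, and the difference was 0.53 ± 0.09, or 1.44-fold (limma adjusted p = 0.0477). Def6, the close relative of Swap70, differed by 0.12 ± 0.10 (limma adjusted p = 0.769), with overlapping arrays.

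Actn1 encodes alpha-actinin-1, which crosslinks filaments and anchors them at adhesion sites. It was at 10.22, 9.89 and 9.90 in Il2ramut/mut Treg cells and at 11.04, 10.84 and 10.96 in WT Treg cells. The highest mutant array was below the lowest WT array, and the gene was 1.93-fold lower in the mutant (log2 difference -0.95 ± 0.12, limma adjusted p = 0.0158). Its paralog Actn4 did not follow, with 11.27, 11.17 and 11.32 in mutant and 11.16, 11.11 and 11.25 in WT Treg cells (difference 0.08, 95% interval -0.11 to 0.27). Cnn3, a calponin that binds along actin filaments, had signals of 5.54, 5.33 and 5.75 in Il2ramut/mut Treg cells, close to the background of those arrays (5.54, 5.03 and 5.32), and of 6.88, 6.66 and 6.82 in WT Treg cells. The difference was -1.25 ± 0.21, or 2.37-fold lower (limma adjusted p = 0.0484), and because the mutant values sit near background the fold may be understated. Cnn2, the other calponin of the list, differed by -0.24 (95% interval -0.48 to 0.0043) and was not called.

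**Figure D1:**
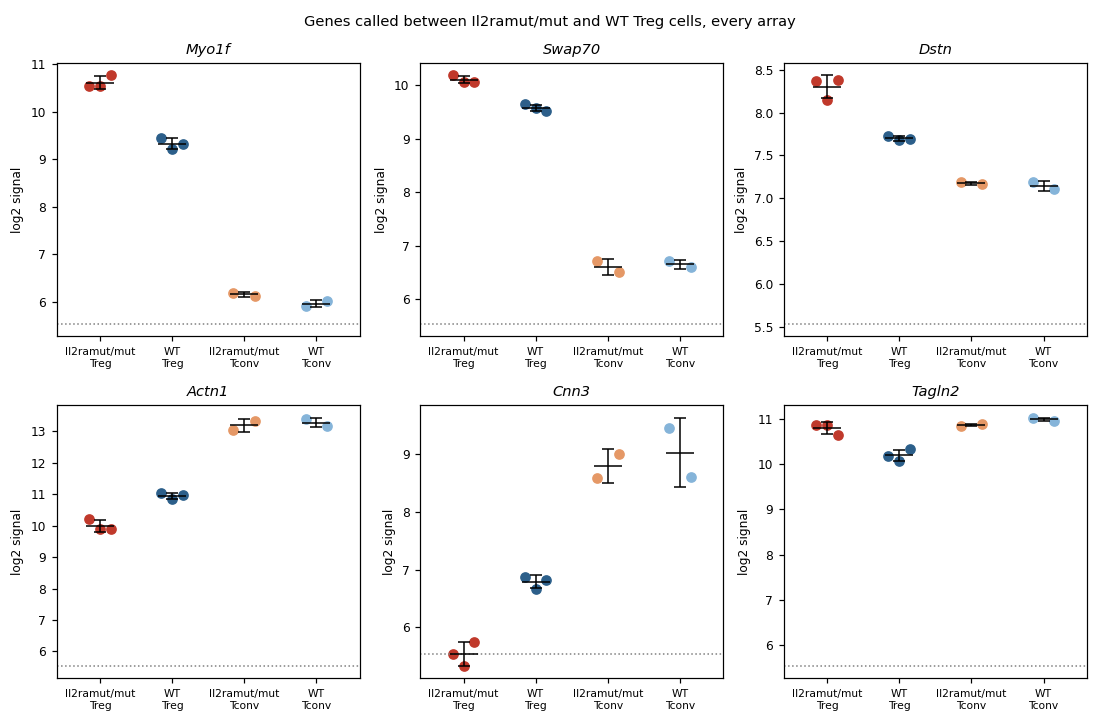
Log2 signal on every array (points) of the 4 members called between Il2ramut/mut and WT Treg cells, and of Dstn and Tagln2 from the wider actin list, with group mean and SD (bars) for Il2ramut/mut Treg, WT Treg, Il2ramut/mut Tconv and WT Tconv cells. The dotted line marks the highest background of the 10 arrays (5.54). Myo1f sits near 10.6 in mutant and 9.3 in WT Treg cells, and Cnn3 reaches the dotted line in mutant Treg cells.

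The call on Myo1f held whichever of the 6 Treg arrays was left out (limma adjusted p 0.00728 to 0.0164). That on Actn1 was lost without Il2ramut/mut replicate 2 or 3, or without any 1 of the 3 WT Treg replicates (limma adjusted p 0.0569 to 0.0736), while those on Cnn3 (0.0941 to 0.16) and Swap70 (0.0985 to 0.175) were lost whichever of the 6 arrays was left out. Calls on Cnn3 and Swap70 were also lost with an intensity trend in the variance estimate, and that on Swap70 when only the 2 Treg groups were fitted.

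The other 37 members were not called in Treg cells, and their differences ran from -0.24 (Cnn2) to 0.41 (Myo1e). For 35 of them the 95% interval of the difference lay inside a 1.5-fold change in either direction. Myo1e, a class I myosin like Myo1f, came nearest to a call, with 10.36, 10.48 and 10.62 in mutant and 10.19, 9.996 and 10.04 in WT Treg cells (difference 0.41 ± 0.09, limma adjusted p = 0.147). The arrays of the genotypes did not overlap for it, nor for Lcp1, Capg, Evl, Rhoh, Iqgap1 and Icam2 among the members not called. No array-wide share was computed for arrays that do not overlap. Myo1g, the third class I myosin, differed by 0.17 ± 0.09 (limma adjusted p = 0.612). None of the 4 integrin adaptors was called: Tln1 (talin) differed by -0.0007, Fermt3 (kindlin-3, an integrin activator of blood cells) by -0.01, Vcl by 0.17 and Zyx (zyxin) by 0.20. The same held for the 3 membrane linkers Ezr, Msn and Rdx, with differences between -0.11 (Ezr) and -0.0018 (Msn), and for the 3 coronins, with 0.22 for Coro1b, 0.01 for Coro2a and -0.05 for Coro1a.

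Filament assembly genes stood close to 0 as well. Arpc2 and Arpc5, subunits of the Arp2/3 complex, differed by -0.01 and 0.08, Was and Wasf2, which switch the complex on, by 0.09 and -0.04, and Wipf1, the partner of WASP, by -0.09. The turnover genes Cfl1 (cofilin), Pfn1 (profilin), Gsn (gelsolin) and Capg (a capping protein of the gelsolin family) differed by 0.06, -0.16, 0.02 and 0.21. Vasp and Evl, which extend filaments, differed by 0.07 and -0.21. Among the small GTPases, Rac2, Cdc42 and Rhoh differed by -0.0032, 0.04 and -0.20, the Rac and Cdc42 exchange factors Dock2 and Dock8 by 0.04 and -0.09, and the scaffold Iqgap1 by 0.15. The crosslinkers Flna (filamin A) and Lcp1 (L-plastin) differed by 0.14 and 0.08, Vim (vimentin) by 0.27, Icam1 by -0.17 and Icam2 by 0.28.

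**Figure D2:**
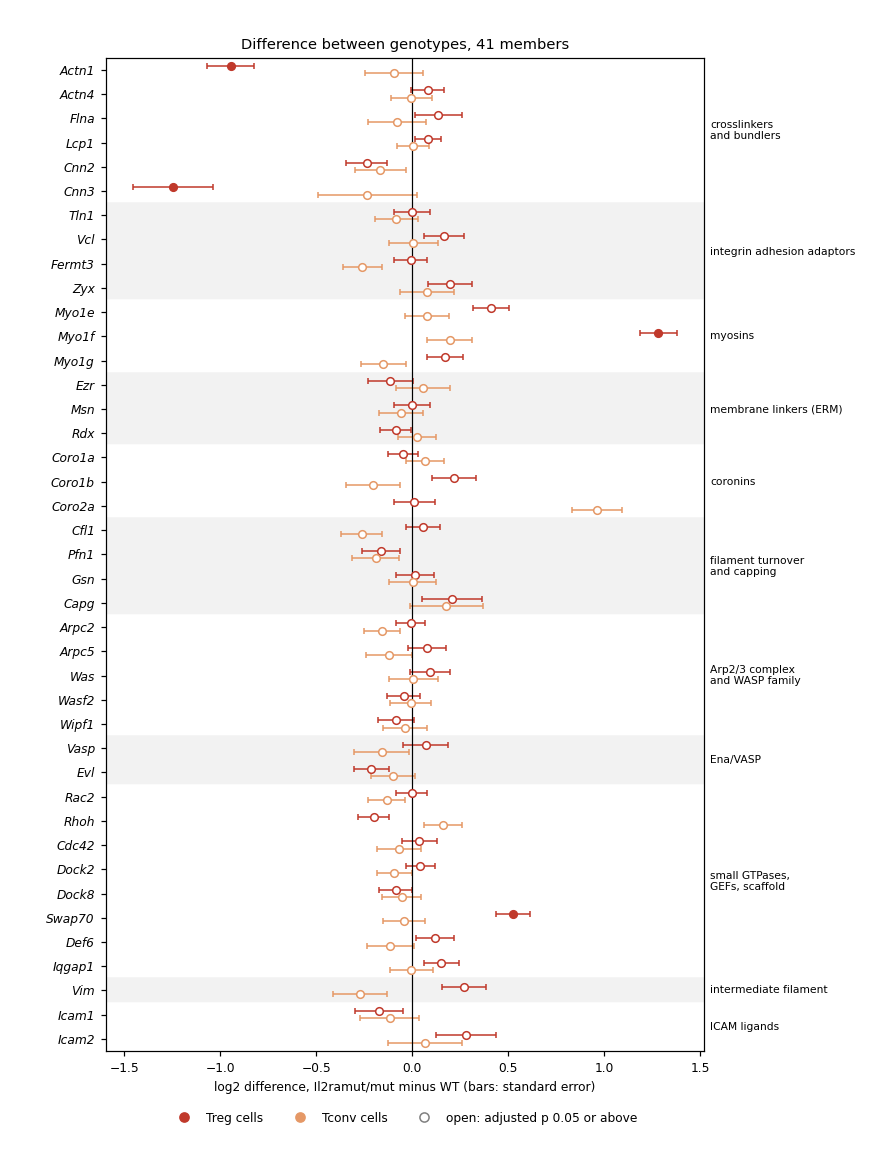
Log2 difference between Il2ramut/mut and WT cells (x axis, with standard error) for each of the 41 members (rows, grouped by role) in Treg cells (dark) and Tconv cells (light). Filled points were called at an adjusted p under 0.05. Of the filled points, all in Treg cells, Myo1f (1.28) and Swap70 (0.53) lie to the right and Actn1 (-0.95) and Cnn3 (-1.25) to the left, and Coro2a in Tconv cells (0.96) is an open point.

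A wider list of 112 measured genes of the same machinery was examined beside the members. In Treg cells 2 of them were called, both higher in the mutant (1.79%, against 0.171% of all probe sets and 0.469% of genes above background) and both binders of actin. Dstn (destrin), which depolymerises filaments, had signals of 8.37, 8.14 and 8.38 in Il2ramut/mut and 7.73, 7.68 and 7.69 in WT Treg cells, a difference of 0.60 ± 0.09 (limma adjusted p = 0.0243). Tagln2 (transgelin-2), which stabilises filaments at the T cell synapse, had 10.87, 10.86 and 10.64 in mutant and 10.18, 10.07 and 10.33 in WT Treg cells, a difference of 0.60 ± 0.10 (limma adjusted p = 0.0411). For both genes the mutant arrays lay above all WT arrays. With single arrays left out, the call on Dstn held only without Il2ramut/mut replicate 2 (limma adjusted p = 0.0236) and was lost without any other single Treg array (0.07 to 0.116), and that on Tagln2 was lost without any 1 of the 6 (0.0579 to 0.162). The median difference over the 112 genes was -0.01.

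Cell cycle genes moved with genotype in the same Treg arrays. Of 11 proliferation genes, 5 were called higher in the mutant and none lower, with a median difference of 0.80. Their summed linear signal ran from 2392 to 3638 on the Il2ramut/mut Treg arrays and from 993 to 1415 on the WT Treg arrays. Of 9 naive T cell genes, 1 (Igfbp4) was called, lower in the mutant, with a list median of -0.43. The differences of 8 of the 9 were below 0, from -1.11 (Igfbp4) to -0.22 (S1pr1), while Il7r, the brightest, stood at 0.47. Summed linear signal overlapped between genotypes with Il7r included (51119 to 77582 in Il2ramut/mut, 49657 to 61256 in WT) and did not without it (14252 to 18503 in Il2ramut/mut, 18953 to 23571 in WT). Actn1 itself stands on the naive list used here and was left out of these counts and sums. Cd22, a B cell gene, was lower in Il2ramut/mut than in WT Treg cells by a difference of -0.75 that was not called (limma adjusted p = 0.0517). Pecam1, from a list of stroma and endothelium genes, was lower in Il2ramut/mut Treg cells by -0.82, also not called (limma adjusted p = 0.1). The part of these genes in the differences of Myo1f, Swap70, Actn1 and Cnn3 was not tested. In these sorted populations, a shift in the share of cells that express a gene and a shift in RNA per cell cannot be told apart.

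The sequences before the start sites of these genes are shown because the 4 called members are the ones whose RNA moved with genotype, beside Myo1e and Icam1, called between Treg and Tconv cells, whose windows hold a motif. RefSeq windows (GRCm38.p6) were found for 38 of the 41 members, not for Rac2, Coro1b and Icam2. Each line gives the 250 bases before the start, 5′ to 3′ on the strand of the gene, with motif matches in capitals. The motifs were the CArG box of serum response factor, a regulator of many actin genes, the palindrome TTCNNNGAA read by STAT proteins such as the STAT5 that IL-2 activates, and the forkhead core TGTTTAC, each searched on both strands and with no overlap among the matches shown.
Myo1f, chr17:33555457-33555706, plus strand: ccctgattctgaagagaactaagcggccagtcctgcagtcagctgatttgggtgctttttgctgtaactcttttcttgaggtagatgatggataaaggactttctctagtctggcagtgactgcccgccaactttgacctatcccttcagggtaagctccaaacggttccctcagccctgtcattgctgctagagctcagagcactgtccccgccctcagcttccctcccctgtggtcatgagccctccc
Swap70, chr7:110221453-110221702, plus strand: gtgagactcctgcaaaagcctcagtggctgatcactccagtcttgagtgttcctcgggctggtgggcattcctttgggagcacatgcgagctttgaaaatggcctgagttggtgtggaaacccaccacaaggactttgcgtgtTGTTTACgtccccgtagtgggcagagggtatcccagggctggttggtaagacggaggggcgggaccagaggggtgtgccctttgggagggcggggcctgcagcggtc
Actn1, chr12:80260364-80260613, minus strand: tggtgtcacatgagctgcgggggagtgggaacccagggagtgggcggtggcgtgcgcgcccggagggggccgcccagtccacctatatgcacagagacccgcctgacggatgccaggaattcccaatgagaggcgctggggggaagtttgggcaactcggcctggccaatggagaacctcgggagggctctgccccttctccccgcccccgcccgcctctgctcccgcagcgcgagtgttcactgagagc
Cnn3, chr3:121426291-121426540, plus strand: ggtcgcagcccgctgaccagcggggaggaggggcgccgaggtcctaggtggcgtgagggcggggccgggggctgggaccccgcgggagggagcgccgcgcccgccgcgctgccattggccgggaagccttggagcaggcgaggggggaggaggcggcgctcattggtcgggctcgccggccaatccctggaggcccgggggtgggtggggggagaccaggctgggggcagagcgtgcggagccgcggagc
Myo1e, chr9:70207100-70207349, plus strand: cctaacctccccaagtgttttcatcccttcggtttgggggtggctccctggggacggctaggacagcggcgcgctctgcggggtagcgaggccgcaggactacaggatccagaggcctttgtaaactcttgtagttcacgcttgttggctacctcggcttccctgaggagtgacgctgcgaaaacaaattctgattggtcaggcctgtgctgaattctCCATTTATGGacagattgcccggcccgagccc
Icam1, chr9:21015690-21015939, plus strand: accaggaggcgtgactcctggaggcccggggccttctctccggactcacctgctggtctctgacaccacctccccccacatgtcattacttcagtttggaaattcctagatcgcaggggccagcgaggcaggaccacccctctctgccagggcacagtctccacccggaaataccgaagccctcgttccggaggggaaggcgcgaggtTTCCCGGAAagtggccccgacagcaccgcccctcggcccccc
A forkhead core ended 101 bases before the start of Swap70, a CArG box lay 32 to 23 bases before that of Myo1e, and a STAT palindrome lay 42 to 34 bases before that of Icam1. The windows of Myo1f, Actn1 and Cnn3 held none of the 3 motifs. Across the 38 members the CArG box was found in 3 (Cnn2, Vcl and Myo1e), the forkhead core in 2 (Swap70 and Rdx) and the STAT palindrome in 1 (Icam1). A member counted where any of its windows held the motif, and the 38 members had 47 windows. Of 32851 single windows of the same length, 1.47% held a CArG box, 3.17% a forkhead core and 7.02% a STAT palindrome. The counts per member and the shares per window are thus not on the same basis. A match of letters is a description of the window and does not show that a factor binds there.

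In Tconv cells no member was called between genotypes by limma, and the background was 2 calls in 65956 probe sets (0.00303%). An unadjusted p under 0.05 was found for 3 of the 41 (7.32%), close to the 7.09% of all probe sets and 7.53% of genes above background. At the fold and p threshold of the study's methods, an unpaired test of the 2 groups counted 1 member, and none after Benjamini-Hochberg adjustment. Coro2a, a coronin that binds actin filaments and is also known as part of the NCoR corepressor complex, stood furthest from 0. Its signals were 7.36 and 7.48 in Il2ramut/mut Tconv cells and 6.42 and 6.49 in WT Tconv cells. The mutant arrays were both above the WT arrays, by a difference of 0.96 (95% interval 0.67 to 1.26), yet the adjusted p was 0.157 in limma. Differences of the other 40 members in Tconv cells ran from -0.27 (Vim) to 0.20 (Myo1f). Linear signals of 11 immediate early and dissociation genes summed to 4356.1 to 4505.8 on Il2ramut/mut and 2004.9 to 2677.9 on WT Tconv arrays. Without Dusp1, the brightest, these sums overlapped (2085.1 to 2363.7 and 1809.4 to 2154.9). None of the 11 was called, and their part in the difference of Coro2a was not tested.

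A test of the interaction, which asks whether the genotype effect in Treg cells differed from that in Tconv cells, called no member in limma. The background was 1 call in 65956 (0.00152%). Unadjusted, 10 of the 41 were under 0.05 (24.4%, against 6.52% of all probe sets and 7.32% of genes above background). Myo1f came nearest, with an effect larger in Treg cells by 1.09 (limma adjusted p = 0.117). Coro2a ran the other way, by -0.95 (limma adjusted p = 0.226), and Actn1, Cnn3 and Swap70 gave -0.85, -1.01 and 0.57 (limma adjusted p = 0.337, 0.606 and 0.371). The genotype effects on the called members are therefore not shown to differ between the cell types. From the wider list no gene was called in Tconv cells or for the interaction, with 7 and 8 of 112 under an unadjusted 0.05 (6.25% and 7.14%).

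The comparison of Treg with Tconv cells moved far more of the members. In Il2ramut/mut mice 14 of the 41 were higher in Treg cells (34.1%, against 5.43% of all probe sets and 14.0% of genes above background) and 7 were lower (17.1%, against 5.91% and 8.53%). In WT mice 8 were higher (19.5%, against 4.37% and 11.0%) and 6 were lower (14.6%, against 3.52% and 6.42%). The count of 21 in the mutant became 13 without Il2ramut/mut Tconv replicate 1 and 12 without replicate 2. Of the calls, 13 went the same way in both genotypes. No array-wide share was computed for calls made in both genotypes, in 1 or in none. Such counts, here and below, stand alone. The 7 higher ones were Myo1e, Coro2a, Myo1f, Swap70, Capg, Icam1 and Coro1b, and the 6 lower ones were Actn1, Cnn3, Icam2, Gsn, Flna and Evl.

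Both long-tailed class I myosins of the list were far higher in Treg cells. Myo1e had signals of 10.36, 10.48 and 10.62 in Il2ramut/mut Treg cells, against 5.58 and 5.57 in Il2ramut/mut Tconv cells. In WT mice it had 10.19, 9.996 and 10.04 in Treg cells, against 5.47 and 5.52 in Tconv cells, values close to background (5.07 to 5.35 on the 4 Tconv arrays). The difference was 4.91 ± 0.10 in Il2ramut/mut and 4.58 ± 0.10 in WT mice, that is 30.1-fold and 23.9-fold (limma adjusted p = 6.66e-09 and 4.55e-09), and with Tconv cells near background the folds may be understated. Myo1f, at 6.19 and 6.12 in Il2ramut/mut Tconv cells and 5.91 and 6.01 in WT Tconv cells, was 21.9-fold higher in Treg than in Tconv cells of the mutant and 10.3-fold higher in those of WT mice (limma adjusted p = 8.79e-09 and 4.29e-08). Myo1g, a short-tailed class I myosin of lymphocytes, showed no such difference. It had 12.64, 12.43 and 12.50 in Treg and 12.52 and 12.52 in Tconv cells of the mutant, and 12.49, 12.21 and 12.36 in Treg and 12.66 and 12.67 in Tconv cells of WT mice (difference -0.31, 95% interval -0.55 to -0.08, limma adjusted p = 0.12).

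Among the coronins the pattern split by gene. Coro2a had 11.48, 11.69 and 11.75 in Il2ramut/mut Treg cells against 7.36 and 7.48 in Il2ramut/mut Tconv cells, and 11.61, 11.79 and 11.48 in WT Treg cells against 6.42 and 6.49 in WT Tconv cells. It was higher in Treg cells by 4.22 ± 0.12 in the mutant and by 5.17 ± 0.12 in WT mice (18.6-fold and 36.0-fold, limma adjusted p = 1.8e-08 and 4.96e-09). Coro1b, which acts on Arp2/3 and cofilin at the leading edge, had 10.83, 10.55 and 10.38 in mutant Treg cells against 9.33 and 9.43 in mutant Tconv cells, and 10.34, 10.40 and 10.37 against 9.67 and 9.49 in WT mice. Its differences were 1.21 ± 0.13 and 0.79 ± 0.13 (limma adjusted p = 0.000192 and 0.00387). Coro1a, the main coronin of leukocytes, had 14.27, 14.24 and 14.18 against 14.44 and 14.34 in the mutant, and 14.34, 14.24 and 14.25 against 14.39 and 14.25 in WT mice. Its differences were -0.16 and -0.04, with 95% intervals of -0.36 to 0.04 and -0.24 to 0.16.

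Swap70 and the capping protein Capg, like Myo1e and Myo1f, were higher in Treg than in Tconv cells of both genotypes. Swap70 was at 6.71 and 6.50 in Il2ramut/mut Tconv cells and at 6.71 and 6.59 in WT Tconv cells, below every Treg array, and the Treg difference was 3.50 ± 0.10 in the mutant and 2.93 ± 0.10 in WT mice (limma adjusted p = 1.8e-08 and 6.51e-08). Def6 differed by 0.11 and -0.12 in the same contrasts, with 9.30, 9.06 and 8.95 against 8.998 and 8.982 in the mutant, and 9.06, 8.97 and 8.92 against 9.16 and 9.05 in WT mice. Capg, which caps the growing end of filaments without cutting them, had 10.88, 11.01 and 10.91 in Treg and 8.08 and 7.75 in Tconv cells of the mutant, and 10.85, 10.81 and 10.52 in Treg and 7.46 and 8.01 in Tconv cells of WT mice. That is 8.11-fold and 7.94-fold higher in Treg cells (limma adjusted p = 2.6e-06 and 3.47e-06). Gelsolin, its relative that cuts as well as caps, ran opposite at much lower signal. Gsn was at 5.57, 5.52 and 5.51 in mutant Treg cells against 6.29 and 5.98 in mutant Tconv cells, and at 5.59, 5.56 and 5.40 in WT Treg cells against 6.17 and 6.09 in WT Tconv cells, differences of -0.60 and -0.61 (limma adjusted p = 0.00652 and 0.00761). These values sit just above background, and the calls were lost without replicate 1 of the Il2ramut/mut Tconv arrays (-0.45, limma adjusted p = 0.0599) or of the WT Tconv arrays (-0.57, limma adjusted p = 0.0613).

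The 2 LFA-1 ligands of the list moved in opposite directions. Icam1, the inducible one, had 9.14, 9.19 and 9.26 in Treg and 7.33 and 7.50 in Tconv cells of the mutant, and 9.26, 9.32 and 9.54 in Treg and 7.31 and 7.74 in Tconv cells of WT mice. It was 3.45-fold and 3.59-fold higher in Treg cells (limma adjusted p = 2.4e-05 and 2.29e-05). Icam2 had 8.83, 8.98 and 9.11 in Treg and 9.65 and 10.30 in Tconv cells of the mutant, and 8.75, 8.62 and 8.70 in Treg and 10.03 and 9.78 in Tconv cells of WT mice. All Treg arrays were below all Tconv arrays for it, with differences of -1.0 ± 0.18 and -1.22 ± 0.18 (limma adjusted p = 0.00477 and 0.00195).

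**Figure D3:**
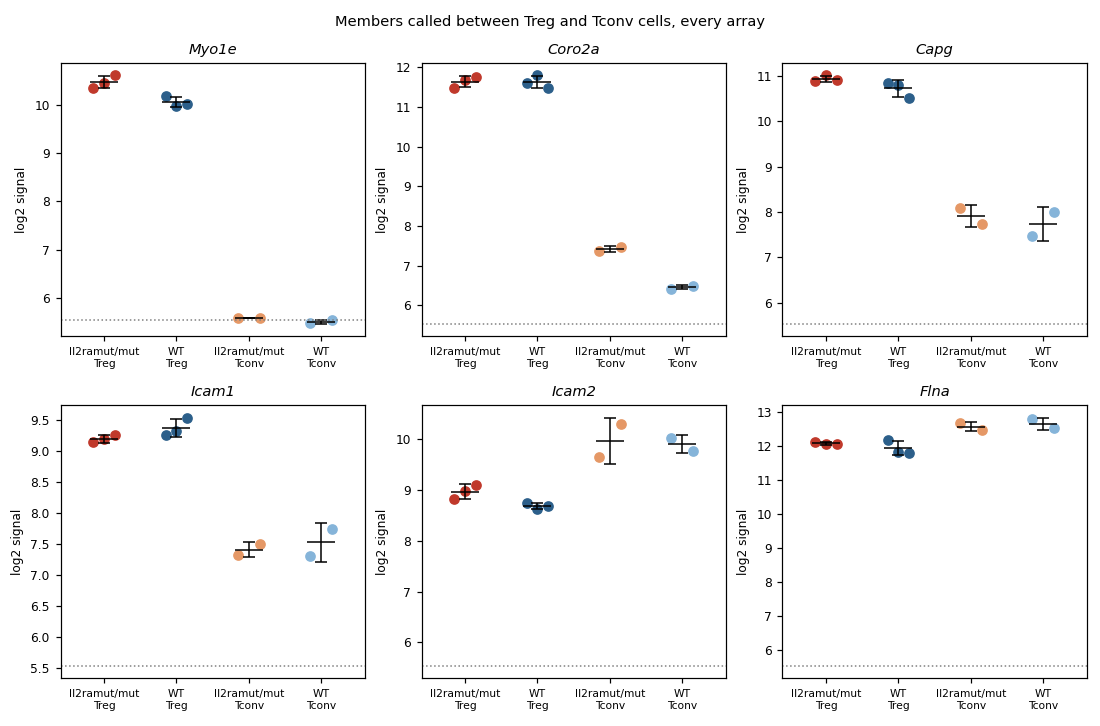
Log2 signal on every array (points) of 6 members called between Treg and Tconv cells, with group mean and SD (bars) for Il2ramut/mut Treg, WT Treg, Il2ramut/mut Tconv and WT Tconv cells. The dotted line marks the highest background of the 10 arrays (5.54). Myo1e, Coro2a, Capg and Icam1 are high in both Treg groups, Icam2 and Flna are higher in both Tconv groups, and Myo1e reaches the dotted line in Tconv cells.

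Actn1 and Cnn3, both of the crosslinker group, showed the largest reductions in Treg cells among the members. Actn1 was at 13.05 and 13.33 in Il2ramut/mut Tconv cells and at 13.39 and 13.17 in WT Tconv cells, and Treg cells were 9.11-fold lower in the mutant and 5.05-fold lower in WT mice (limma adjusted p = 4.15e-07 and 4.2e-06). Its order over the groups was therefore mutant Treg cells lowest, WT Treg cells next and Tconv cells of either genotype highest, the last pair differing by -0.09 (limma adjusted p = 0.95). Cnn3 had the same order, with 8.588 and 8.9994 in mutant and 9.46 and 8.60 in WT Tconv cells, and was 9.53-fold and 4.73-fold lower in Treg than in Tconv cells of the mutant and of WT mice (limma adjusted p = 1.32e-05 and 0.00022). The WT Tconv arrays of Cnn3 were the most variable of any member and group (SD 0.61, n = 2). Actn4 had 11.03 and 11.00 in mutant and 11.12 and 10.92 in WT Tconv cells, and its Treg differences of 0.23 and 0.15 were not called. Cnn2, with 12.35, 12.17 and 11.97 against 11.96 and 12.11 in the mutant and 12.39, 12.32 and 12.49 against 12.20 and 12.20 in WT mice, differed by 0.13 and 0.20 and was not called either.

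Flna, encoding filamin A, had 12.12, 12.06 and 12.06 in Treg and 12.67 and 12.47 in Tconv cells of the mutant, and 12.19, 11.84 and 11.79 in Treg and 12.78 and 12.52 in Tconv cells of WT mice. The differences were -0.50 and -0.71 (limma adjusted p = 0.0471 and 0.0107). The call in the mutant was lost when any 1 of its 5 arrays was left out (0.0791 to 0.253) and after quantile normalization, and the WT call was lost without WT Tconv replicate 1 (0.0913). Evl was lower in Treg cells, with differences of -0.55 ± 0.10 in the mutant and -0.44 ± 0.10 in WT mice. Its call in WT mice was lost when any 1 of the 5 WT arrays was left out (limma adjusted p 0.0601 to 0.135).

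Further members were called in 1 genotype, without a called interaction. Rhoh, which acts in T cell receptor signaling, was higher in WT Treg than in WT Tconv cells by 0.59 ± 0.09 (limma adjusted p = 0.00282), against a difference of 0.22 in the mutant. Another 8 passed in the mutant: Vim, the intermediate filament of lymphocytes, was higher in Treg cells by 0.97 ± 0.13 (limma adjusted p = 0.000859), and Vasp, Fermt3, Tln1, Cfl1, Rac2 and Lcp1 were higher by 0.34 to 0.53, while Ezr was lower (-0.54). In WT mice the differences of these 8 ran from -0.37 (Ezr) to 0.42 (Vim) and none was called. Rhoh and Vim kept their calls without any 1 array, whereas each of the other 7 lost its call without at least 2 of the 5 arrays of the mutant. Of the 41 members 19 were called in none of the contrasts, among them all 5 of the Arp2/3 and WASP group, Msn and Rdx, Pfn1, Cdc42 and the exchange factors Dock2, Dock8 and Def6. Their Treg minus Tconv differences lay within 0.37 of 0 in both genotypes.

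**Figure D4:**
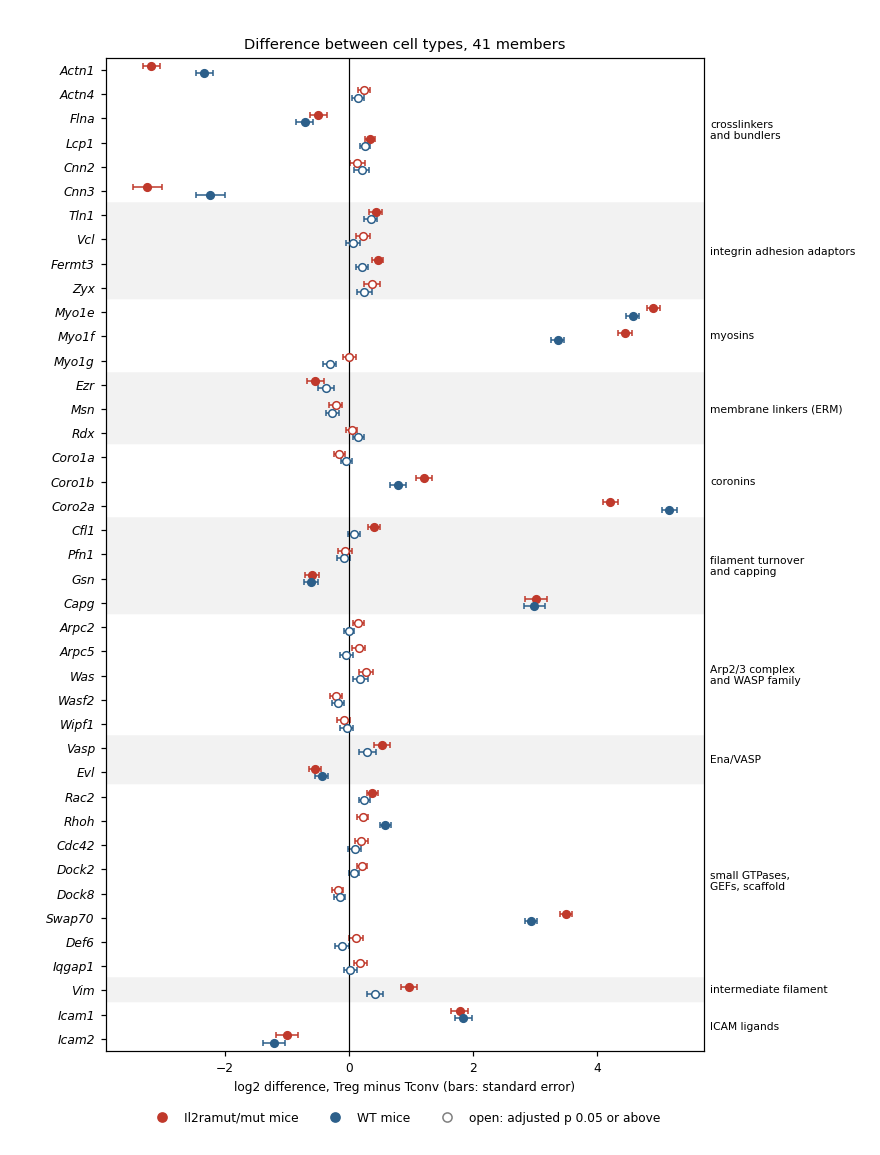
Log2 difference between Treg and Tconv cells (x axis, with standard error) for each of the 41 members (rows, grouped by role) in Il2ramut/mut mice and in WT mice. Filled points were called at an adjusted p under 0.05. Myo1e, Myo1f, Coro2a, Swap70 and Capg lie near or beyond 3 to the right in both genotypes, Actn1 and Cnn3 beyond -2 to the left, and the Arp2/3 and WASP group close to 0.

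The gate moved with the cell type in this comparison. All 9 naive T cell genes were lower in Treg cells of both genotypes, with medians of -1.64 in Il2ramut/mut and -1.39 in WT mice. Their summed linear signal was 51119 to 77582 and 49657 to 61256 on the Il2ramut/mut and WT Treg arrays, against 181888 to 221868 and 154453 to 164985 on the Il2ramut/mut and WT Tconv arrays. Of the 11 proliferation genes, 10 were called higher in Treg cells of the mutant and 6 in those of WT mice. Tconv cells were sorted as naive and Treg cells were not, so the differences of Myo1e, Coro2a, Actn1 and the others by cell type and by activation state cannot be told apart here.

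Some genes of the B cell and myeloid lists that were above background also moved with the cell type. Cd79b, a chain of the B cell receptor complex, was above background on all 10 arrays, and it and Cd22 were called higher in Treg than in Tconv cells, by 1.64 and 0.82 in Il2ramut/mut and by 1.43 and 1.54 in WT mice. The summed linear signal of the 9 B cell genes was 383 to 454 and 415 to 478 on the Il2ramut/mut and WT Treg arrays, against 273 to 282 and 280 to 287 on the Il2ramut/mut and WT Tconv arrays. Of the myeloid genes, Lyz2, Cd68 and Cst3 were above background on all 10 arrays. Cst3, which encodes the widely expressed cystatin C, was called higher in Treg than in Tconv cells, by 1.55 in Il2ramut/mut and 1.23 in WT mice. In each genotype 2 other myeloid genes were called lower. They were Itgam (-0.50) and Cd68 (-0.74) in Il2ramut/mut mice, and Itgam (-0.68) and Tyrobp (-0.60) in WT mice. The summed linear signal of the 12 myeloid genes was 5196 to 5920 and 4189 to 4968 on the Il2ramut/mut and WT Treg arrays, against 2136 to 2299 and 2137 to 2325 on the Il2ramut/mut and WT Tconv arrays. Without Cst3 it was 376 to 458 and 410 to 452 on the Il2ramut/mut and WT Treg arrays, against 449 to 476 and 482 to 486 on the Il2ramut/mut and WT Tconv arrays. The 5 NK and innate lymphoid genes summed to 180.4 to 195.8 and 153.2 to 172.8 on the Il2ramut/mut and WT Treg arrays. On the Tconv arrays they gave 1102.0 to 1820.5 and 961.2 to 1859.2. The 9 stroma and endothelium genes gave 1680.3 to 2427.9 and 2867.3 to 3985.2 on the Treg arrays. On the Tconv arrays they gave 5711.5 to 6637.3 and 7513.7 to 8100.6. Without Klrd1 and Pecam1, the brightest of each list, sums were 123.7 to 161.1 and 200.7 to 226.8 over all arrays. The part of these genes in the differences of the members was not tested.

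Of the 112 genes of the wider list, 26 were higher (23.2%, against 14.0% of genes above background) and 13 lower (11.6%, against 8.53%) in Treg cells of Il2ramut/mut mice. In WT mice 24 were higher (21.4%, against 11.0%) and 12 lower (10.7%, against 6.42%). Of these, 21 were higher and 8 lower in both genotypes. The 3 largest rises were Abi2, a subunit of the WAVE complex that drives Arp2/3 (1.52 in Il2ramut/mut and 1.85 in WT mice), Ssh1, the phosphatase that activates cofilin (1.59 in Il2ramut/mut and 1.43 in WT mice), and the formin Diaph3 (1.47 in Il2ramut/mut and 1.04 in WT mice). The 3 largest falls were Add3, an adducin that joins filaments to spectrin (-1.47 in Il2ramut/mut and -1.62 in WT mice), Arhgap15, which switches off Rac (-0.97 in Il2ramut/mut and -0.74 in WT mice), and Arhgef1, an exchange factor for RhoA (-0.70 in Il2ramut/mut and -0.87 in WT mice). The largest differences of this list were smaller than those of Myo1e, Coro2a, Myo1f, Swap70 and Capg among the members. Both lists were chosen with earlier results of these data known, so this ranking does not set the members apart. Tagln2, higher in mutant than in WT Treg cells, was lower in WT Treg cells than in WT Tconv cells (-0.80 ± 0.11, limma adjusted p = 0.00131) and differed by -0.07 between Treg and Tconv cells of the mutant (limma adjusted p = 0.728), and the interaction was 0.72 (limma adjusted p = 0.299).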

How the data were processed

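RNA of sorted Treg and Tconv cells was labelled for whole-transcript Affymetrix mouse arrays. The authors deposited 1 log2 signal per probe set and array, made per the labels with Affymetrix Expression Console 1.4.1.46 (Transcriptome Analysis Console 3.1.0.5 is also named). Which normalization algorithm and genome build were used is not stated, and the log2 scale was read from the values. Control probe sets (6732) were left out, and 65956 were fitted as 4 group means in limma 3.58.1 (R 4.3.3), with p-values adjusted by Benjamini-Hochberg over all of them. A gene was read from the probe set naming it alone, the brightest where there were several. Array number limits precision.

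The members and all gene lists were chosen with earlier results of these data known. Values on every array are given for members called in a genotype contrast, for the 12 largest among those called in both Treg against Tconv contrasts, and for their paralogs. Alternatives covered quantile normalization, a filter on dim probe sets, single-gene probe sets, medians per gene, a variance trend, replicate number as a block, the unpaired test of the study's methods (fold 1.5, p 0.01), the 2 groups alone and leaving out each array. The fit was tested on simulated data with changes set in the Treg genotype contrast. It recovered 9 of 50 changes of 0.5 log2, 41 of 50 of 1 and 50 of 50 of 2. Of its 158 calls there, 11 were false. Files and labels name no batch.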

Additional observations from a re-analysis of the deposited data

How the results depend on the processing

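Named differences kept their sign under every alternative run, and of the 580 values computed for differences that were called, 121 lost the call. Among members called between Il2ramut/mut and WT Treg cells (4), 2 stayed with a variance trend, 1 with the replicate block, 3 at the fold and p threshold of the methods' unpaired test and 0 after its adjustment, and 1 to 2 when 1 array was left out. The other counts there were 2 for the wider list, which became 4 after quantile normalization or with single-gene probe sets, 0 with the trend, either block, the 2 groups alone or the methods' adjusted test, and 0 to 2 without 1 array, and 246 for all probe sets, which became 127 with the block, 132 with the 2 groups alone, 386 and 0 by the methods' test before and after adjustment, and 38 to 166 without 1 array. In Tconv cells the methods' threshold counted 1 member and 69 probe sets, and the 2 probe sets called became 1 with the 2 groups alone, 0 with single-gene probe sets, either block or the methods' adjusted test, and 0 to 4 without 1 array. For the interaction the same threshold gave 3 members, 2 genes of the wider list and 909 probe sets, single-gene probe sets gave 5 and leaving out 1 array 1 to 3 in place of 1. Between Treg and Tconv cells of Il2ramut/mut mice, the methods' test counted 10 members (10 adjusted) in place of 21, 24 of the wider list (4 adjusted) in place of 39, and 3149 probe sets (992 adjusted) in place of 7483, while single-gene probe sets gave 4733 and leaving out 1 array gave 12 to 18, 28 to 34 and 4982 to 6381. In WT mice it counted 12 members (5 adjusted) in place of 14, 18 of the wider list (4 adjusted) in place of 36, and 2476 probe sets (647 adjusted) in place of 5206, and leaving out 1 array gave 11 to 13, 24 to 32 and 3473 to 4102. The methods' test fits fewer arrays with no shared variance, and single-gene probe sets are fewer tests and fewer rows to count. The cause of these changes in count was not tested.

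Whether the replicate numbers pair the samples is not given by the labels. Same-numbered arrays of different groups correlated between -0.14 and 0.13 in their deviations from group means. Arrays with different numbers correlated between -0.13 and 0.14. With 2 or 3 arrays in a group, these values cannot decide whether arrays share mice. With the replicate block, the calls on Actn1, Cnn3 and Swap70 in Treg cells were lost (limma adjusted p = 0.0512, 0.0942 and 0.0717), 13 members were called in WT and 19 in Il2ramut/mut mice between Treg and Tconv cells, and 127, 0, 1, 4309 and 6527 probe sets in the Treg, Tconv, interaction, WT and Il2ramut/mut contrasts. The Tconv numbers correlated at -0.14, and with them crossed, a setting chosen after seeing the data, limma called 3, 14 and 19 members in the Treg, WT and Il2ramut/mut contrasts, and the Treg call lost was that on Swap70 (limma adjusted p = 0.104).

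With 2 or 3 arrays per group, the median half-width of the 95% interval over members not called between genotypes was 0.21 in Treg and 0.26 in Tconv cells on the log2 scale. Values of Cnn3 in Il2ramut/mut Treg cells, Myo1e in Tconv cells, Gsn and Vcl lay near background.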
